A study of Mus musculus with 13 samples.

Results

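The 1069 regions described here are stretches of the mouse genome at which STAT5A was called in the number 2 replicate both without and with interleukin 3 (IL3), and in neither number 1 replicate. The 4 STAT5A replicate lists were merged where regions overlapped by 1 bp or more, and regions on assembled chromosomes were sorted by the lists that held them. The 1069 were 5.15% of 20764 merged STAT5A regions. They made up 23.7% of the 4502 merged regions of the number 2 list without IL3 and 17.02% of the 6280 of the number 2 list with IL3. The regions were chosen by the STAT5A calls themselves, so their STAT5A values are a description with no test.

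ChIP-seq, the sequencing of DNA recovered by chromatin immunoprecipitation, was carried out for STAT5A, for the histone demethylase LSD1 and for the histone deacetylase HDAC3 in Ba/F3, an established mouse pro-B cell line that needs IL3 to grow and survive. All cells had been kept in 1 ng/mL IL3. Cells without IL3 had gone 6 h in its absence, and cells with IL3 had gone through the same 6 h and then received IL3 at 10 ng/mL for 30 min. The 12 libraries are 2 biological replicates of each of the 6 groups, and the deposited data used here are lists of called regions, 1 per library and 1 per group after pooling. No allele or transgene is named for the line, the 3 proteins were reached with antibodies, and 1 line stands for all samples.

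STAT5A is a latent transcription factor. The IL3 receptor signals through JAK2, which phosphorylates STAT5 proteins, and these then enter the nucleus as dimers and bind palindromic sites with the letters TTCNNNGAA near genes such as Cish, Socs3 and Pim1. LSD1, encoded by Kdm1a, acts in CoREST complexes, and HDAC3 acts in NCoR and SMRT complexes, which also hold TBL1XR1.

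Promoters of 5 genes with such a region at their end are shown because they belong to the cytokine pathway (Pim1, Jak2), to cell survival (Bcl2, Bcl2l11) or to an HDAC3 complex (Tbl1xr1). The promoters of Gpr146, which encodes a G protein-coupled receptor, and Ubash3b, which encodes a phosphatase, are set beside them. Each had a STAT5A region that was called with IL3 in both replicates and in neither replicate without IL3, a class called gained from here on, and they were picked as high-scoring gained regions at a start whose window holds the STAT letters. Each sequence is the RefSeq window from 250 bases before to 50 bases after the gene start on GRCm38.p6, read 5′ to 3′ on the gene's strand. Capitals mark TTCNNNGAA (the STAT site), CCGGAAG (the letters of ETS factors) and GGGCGG (the GC box of SP factors) on either strand, and neighbouring or overlapping matches run together. The windows are chr17:29490535-29490834 (plus strand) for Pim1, chr19:29251553-29251852 (plus strand) for Jak2, chr1:106714241-106714540 (minus strand) for Bcl2, chr2:128125788-128126087 (plus strand) for Bcl2l11, chr3:22076402-22076701 (plus strand) for Tbl1xr1, chr5:139380389-139380688 (plus strand) for Gpr146 and chr9:41158013-41158312 (minus strand) for Ubash3b.
Pim1: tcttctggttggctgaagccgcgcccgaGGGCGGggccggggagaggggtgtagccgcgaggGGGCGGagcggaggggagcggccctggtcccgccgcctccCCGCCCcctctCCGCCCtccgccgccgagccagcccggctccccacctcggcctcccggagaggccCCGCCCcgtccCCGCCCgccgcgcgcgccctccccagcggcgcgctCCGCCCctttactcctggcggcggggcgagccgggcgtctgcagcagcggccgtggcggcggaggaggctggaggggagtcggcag
Jak2: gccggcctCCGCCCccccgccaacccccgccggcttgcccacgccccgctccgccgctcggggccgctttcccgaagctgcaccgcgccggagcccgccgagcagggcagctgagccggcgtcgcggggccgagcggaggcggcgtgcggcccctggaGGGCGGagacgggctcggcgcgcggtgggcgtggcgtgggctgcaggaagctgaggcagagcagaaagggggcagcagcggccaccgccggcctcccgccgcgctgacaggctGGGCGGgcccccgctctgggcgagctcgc
Bcl2: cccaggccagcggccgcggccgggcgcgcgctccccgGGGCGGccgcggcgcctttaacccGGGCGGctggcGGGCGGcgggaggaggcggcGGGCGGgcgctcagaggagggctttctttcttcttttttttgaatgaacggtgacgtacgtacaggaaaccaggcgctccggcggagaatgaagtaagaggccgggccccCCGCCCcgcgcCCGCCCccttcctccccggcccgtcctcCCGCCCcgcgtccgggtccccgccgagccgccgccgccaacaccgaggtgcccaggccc
Bcl2l11: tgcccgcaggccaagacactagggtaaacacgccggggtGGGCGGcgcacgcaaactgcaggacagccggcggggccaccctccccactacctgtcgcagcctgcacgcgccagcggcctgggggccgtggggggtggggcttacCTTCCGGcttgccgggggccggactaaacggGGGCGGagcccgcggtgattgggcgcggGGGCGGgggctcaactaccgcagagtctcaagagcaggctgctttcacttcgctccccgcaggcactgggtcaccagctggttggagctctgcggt
Tbl1xr1: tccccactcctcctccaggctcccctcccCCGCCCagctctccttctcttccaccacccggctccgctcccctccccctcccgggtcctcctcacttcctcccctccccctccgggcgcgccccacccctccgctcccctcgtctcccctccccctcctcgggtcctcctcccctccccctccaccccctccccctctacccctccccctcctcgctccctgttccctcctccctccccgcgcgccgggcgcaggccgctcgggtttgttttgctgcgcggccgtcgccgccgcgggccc
Gpr146: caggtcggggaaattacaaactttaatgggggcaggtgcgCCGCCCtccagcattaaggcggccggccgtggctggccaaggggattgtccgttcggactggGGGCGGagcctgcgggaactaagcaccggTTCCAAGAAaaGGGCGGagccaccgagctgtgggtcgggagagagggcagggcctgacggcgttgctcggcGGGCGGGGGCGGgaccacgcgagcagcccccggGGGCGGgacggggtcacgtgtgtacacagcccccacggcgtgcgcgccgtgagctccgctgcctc
Ubash3b: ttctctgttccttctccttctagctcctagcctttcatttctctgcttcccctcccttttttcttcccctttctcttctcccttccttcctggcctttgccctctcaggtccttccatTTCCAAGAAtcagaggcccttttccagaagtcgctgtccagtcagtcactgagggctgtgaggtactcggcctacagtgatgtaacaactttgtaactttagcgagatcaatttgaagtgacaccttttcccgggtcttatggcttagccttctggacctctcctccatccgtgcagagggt
The 5 promoters of the first kind held 0 copies of TTCNNNGAA each, and between 1 and 7 GC boxes. The Gpr146 and Ubash3b promoters held 1 copy of TTCNNNGAA each, and in both that copy lay inside the called region. These regions scored 220.1 and 195.1 in the number 2 list with IL3. The promoter of Socs3, which is not shown, also had a gained region, which scored 310.1 in that list. Its window held 1 copy of TTCNNNGAA too, but outside the called region.

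Since the promoters shown were picked, the counts over all promoters carry the comparison. Promoters of genes with one of the 1069 regions within 1 kb of a gene end were rich in G and C and seldom held the STAT letters, while promoters of genes with a gained region held them often. Among 935 promoter windows of 792 such genes, the median G+C content was 67.7% (quartiles 61.7% and 73.0%), against 59.5% in 312 windows with a gained region and 56.3% in all 21263 windows. The median ratio of observed to expected CpG dinucleotides was 0.880, against 0.768 and 0.567. TTCNNNGAA was in 3.85% of the 935 windows (95% Wilson interval 2.79% to 5.28%, counting error only here and below), against 29.8% with a gained region (25.003% to 35.1%) and 7.69% of all windows. The palindrome with a spacer longer by 1 base, the kind STAT6 prefers, was in 4.60%, 11.2% and 6.35% of the same sets. These traits were not particular to the 935 windows. In 3276 windows with a region of a single number 2 list the median G+C content was 65.0% and the CpG ratio 0.846. TTCNNNGAA was in 4.82% of them.

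Letters of general promoter factors differed by smaller ratios between the 935 windows and those with a gained region, while GC boxes and TATA boxes differed widely from all windows. GGGCGG was in 81.1% of the 935 windows, 60.3% of those with a gained region and 46.2% of all windows. CCGGAAG was in 19.9%, 18.9% and 11.6%, and CACGTG, the E-box, was in 12.2%, 10.9% and 7.84%. TATAAA, the TATA box, was in 3.53% of the 935 windows, 7.69% of those with a gained region and 12.6% of all windows, and CCAAT, the NF-Y site, was in 29.3%, 35.9% and 38.2%. CCATNTT, the core of the YY1 site, was in 14.5%, 17.9% and 15.1%. Windows with a region of a single number 2 list held GGGCGG in 74.9% and TATAAA in 4.06% of cases, near the 935 windows. They held CCAAT in 37.1%, near all windows. All of these motifs were searched on both strands, and a match is a run of letters, not a measured site.

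The sequence of the called region itself could be read where at least 100 bp of it lay in a promoter window. TTCNNNGAA was in 2 of 420 such regions of the number 2 lists alone (0.476%, 0.131% to 1.72%) and in 83 of 145 gained regions (57.2%, 49.1% to 65.0%). That is 0.0262 sites per kb against 3.27 sites per kb. Of both exceptions, the region at Fzd4, a WNT receptor, scored low with 17 and 25. That at Csrnp1, a nuclear factor, was of middle rank with 23.8 and 40. G+C content was 73.8% in these parts of the 420 regions and 59.2% in the gained ones, and its part in the difference was not tested. Regions of a single number 2 list were alike in this, with the letters in 2 of 732 regions called without IL3 (0.273%) and 3 of 464 called with IL3 (0.647%). Regions of the number 1 list with IL3 alone held them in 154 of 497 cases (31.0%). Only regions that reach a promoter window enter these counts, and the others were not read.

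Most of the 1069 regions lay at gene starts. The centre was within 1 kb of an end of a protein-coding gene in 782 of 1069 cases (73.2%, 70.4% to 75.7%). The background share over all merged STAT5A regions was 30.2%. Of the gained regions 303 of 1811 lay so close (16.7%, 15.1% to 18.5%), and of the 78 regions of both number 1 lists alone 12 did (15.4%, 9.03% to 24.99%). The median distance to the nearest gene end was 213 bp, against 11395 bp for gained regions. A further 207 regions lay inside genes away from their ends and 80 lay between genes. Only 22 (2.06%) were beyond 50000 bp of any gene end, against 327 gained regions (18.1%). Lists differed in this by replicate number. Regions of a single list lay at gene ends in 59.1% of cases for number 2 without IL3, 50.7% for number 2 with IL3 and 14.7% for number 1 with IL3. Number 2 regions outside the 1069 come from the same libraries.

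**Figure D1:**
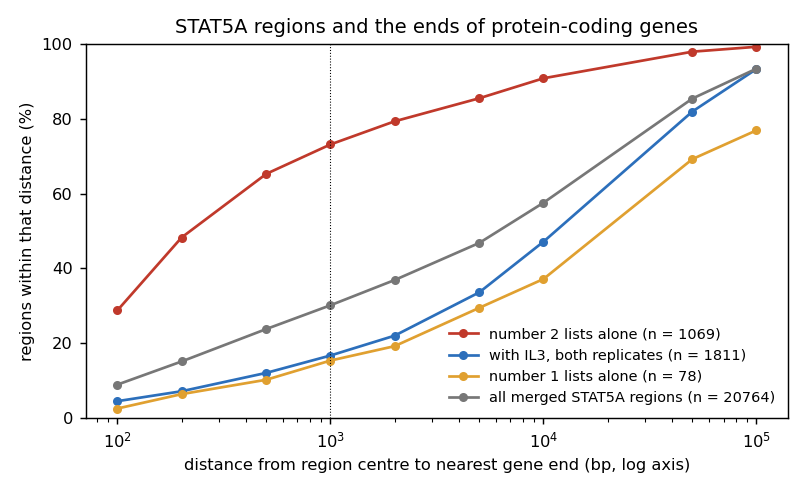
Percent of STAT5A regions (vertical axis) whose centre lies within a given distance in bp of the nearest gene end (horizontal log axis), for 4 classes of merged regions, with a dotted line at 1000 bp. The curve of the 1069 regions of the number 2 lists alone passes 48.3% at 200 bp and 90.8% at 10000 bp, where gained regions reach 7.18% and 47.2%.

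Gene strand was known for the starts in the promoter table, which holds none on chromosome 18. Of the 1050 regions on the other chromosomes, 735 (70.0%, 67.2% to 72.7%) lay within 1 kb of a gene start, against 13.8% of gained regions. Their centres sat on the start rather than before it, with a median offset 30 bp downstream and quartiles from -66 to 140 bp. Within 200 bp of the start were 554 of the 735 (75.4%). Among all 782 regions at gene ends, 628 were nearest a start, 7 were nearest the other end of a gene, and for 147 the strand of the nearest gene was not given. The ends of 2 or more genes lay within 1 kb for 117 of the 782 (15.0%), so a region cannot always be assigned to 1 gene.

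**Figure D2:**
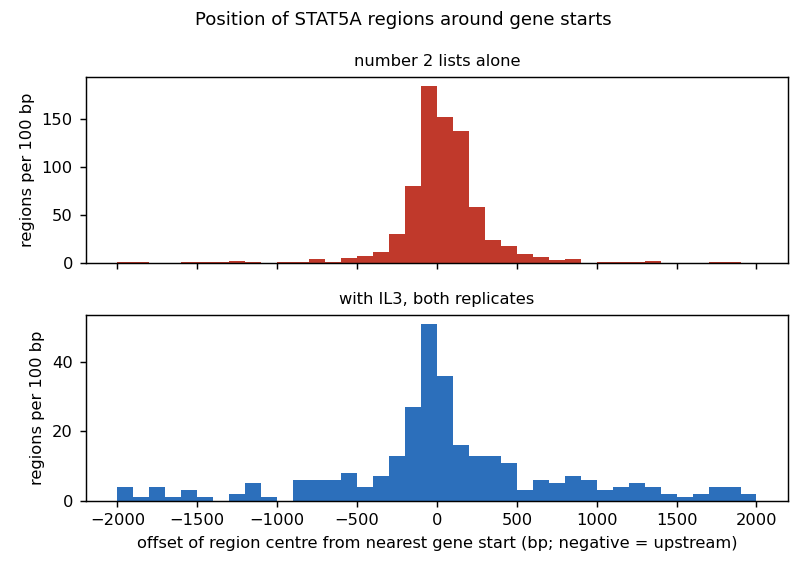
Number of regions per 100 bp (vertical axis) by the offset of the region centre from the nearest gene start in bp (horizontal axis, negative upstream), for the 1069 regions of the number 2 lists alone (top) and for gained regions (bottom). The upper histogram is centred on the start with a median offset of 30 bp, and the lower one is broader, with 53.3% of its 244 regions near starts within 200 bp.

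The deposited lists give every region a score of the authors, on a scale of its own in each list. In the number 2 list without IL3 the 1069 regions had scores from 17 to 312.3 with a median of 23.8, equal to the median of that whole list. In the number 2 list with IL3 they had scores from 20 to 420.1 with a median of 35, again equal to that list's median. Low scores in each list were whole multiples of 1 step, and the median was 7 steps in both lists. The regions were therefore of middle rank in both lists. At the lowest score of its list were 55 regions without IL3, 1 with IL3 and 0 in both, and 396 scored above the middle rank of both lists. Gained regions had a median of 134.3 in the number 1 list with IL3 and 45 in the number 2 list with IL3. The rank orders of the 1069 in both lists were weakly related, with a Spearman coefficient of 0.256 over regions of 2 libraries.

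The line between these regions and the rest was sometimes narrow. A number 1 region lay within 100 bp of 32 regions and within 1 kb of 216, the smallest gap was 1 bp, and the median gap was 12739 bp. The number 1 list with IL3 kept 237 other regions of both number 2 lists out of the class, 18 of them by an overlap under 50 bp and one by 10 bp, and a further 5 were kept out by the number 1 list without IL3 alone. Those 237 lay at gene ends in 44.3% of cases. The number 1 list without IL3 held 354 regions in all, against 4513, 13574 and 6288 in the number 2 list without IL3 and the number 1 and 2 lists with IL3. Relative depths read from the inverse of the score step, under the assumption that a step stands for 1 read, were 2.764, 4.454, 4.054 and 3.024 in the same order, so the number 1 list with IL3 was neither the shallowest nor the shortest. In the lists called on the pooled libraries, 872 of the 1069 (81.6%) were called without IL3, 733 (68.6%) with IL3, 600 in both and 64 in neither.

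LSD1 was called at most of these regions in both number 2 libraries and at a minority in both number 1 libraries, and HDAC3 at few. The rule did not use these libraries. LSD1 covered 8.89% of the regions without IL3 in replicate 1, where the background over all merged STAT5A regions was 2.75%. It covered 58.3% without IL3 in replicate 2, over a background of 26.8%. With IL3 it covered 35.3% in replicate 1 and 65.0% in replicate 2, over backgrounds of 15.3% and 25.9%. The share was thus above its background in each LSD1 library and was lowest in the shallowest one, the library without IL3 of replicate 1, whose relative depth was 1.0 against 4.962 to 6.105 for the others. The 237 regions of both number 2 lists that the number 1 list with IL3 also held had higher shares. In the same order of libraries these were 20.7%, 75.1%, 53.6% and 81.0%.

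HDAC3 covered 7.76% and 2.81% of the regions without IL3 in replicates 1 and 2, over backgrounds of 4.86% and 1.24%. With IL3 it covered 2.06% and 1.03%, over backgrounds of 2.56% and 0.241%. In replicate 1 with IL3 the share was near its background. At the 237 regions also held by the number 1 STAT5A list with IL3, HDAC3 covered 27.8% and 11.8% without IL3 and 17.3% and 0.844% with it. HDAC3 regions numbered 1632, 535, 683 and 265 in these lists, against 1007 to 15786 for LSD1. No HDAC3 list called 957 of the 1069 regions, no LSD1 list called 188, and 184 (17.2%) were in none of the 8 lists, where 39.5% of gained regions and 60.5% of all merged regions were in none.

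**Figure D3:**
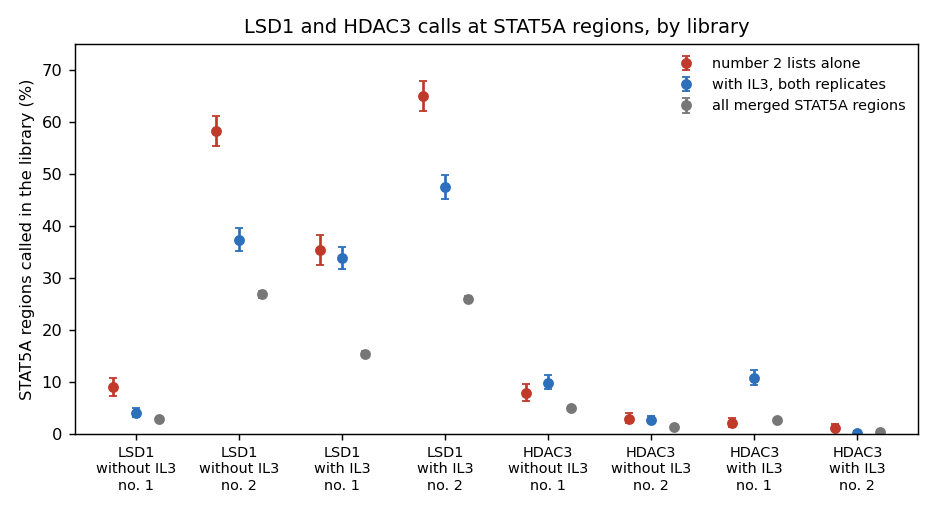
Percent of STAT5A regions called in each LSD1 and HDAC3 library (vertical axis) for regions of the number 2 lists alone, gained regions and all merged STAT5A regions, with 95% Wilson intervals for counting error. Both number 2 LSD1 libraries cover over 58% of the regions of the number 2 lists alone, and no HDAC3 library covers over 8%.

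LSD1 shares with and without IL3 overlapped between replicates, while both HDAC3 shares with IL3 lay below both without. The mean LSD1 share was 33.6% ± 34.9 (SD, n = 2) without IL3 and 50.1% ± 21.0 with it, a difference of 16.6 percentage points (two-sided exact permutation p = 0.667). Without LSD1 replicate 1 without IL3, the shallow library, the difference was -8.14 points. The mean HDAC3 share was 5.29% ± 3.51 without IL3 and 1.54% ± 0.728 with it, a difference of -3.74 points (two-sided exact permutation p = 0.33). A comparison of 2 against 2 libraries cannot give a p below 0.33, so neither difference could pass the threshold of 0.05.

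Across the 8 LSD1 and HDAC3 libraries, the regions were called more often than STAT5A regions of a single list and less often than those of all 4 lists. Their mean share was 22.6%, against 7.42% for 17233 regions of a single STAT5A list, a difference of 15.2 points that was positive in 8 of 8 libraries. For 49 regions of all 4 STAT5A lists the mean share was 51.0%, and the difference of -28.4 points had the same sign in every library. Both differences gave p = 0.00781 in a two-sided exact paired permutation test over libraries, the smallest it allows, and 0.0117 after Benjamini-Hochberg adjustment over 3 comparisons. Median widths were 214 bp for the 1069 regions, 173 bp for regions of a single list and 287 bp for those of all 4, and a wider region is more easily overlapped. With centres within 500 bp in place of overlap, which was added once the data had been seen, the differences were 17.03 and -26.9 points. Of the 17233 regions, 11130 were of the number 1 list with IL3, and 14.7% of these lay at gene ends. In the number 2 LSD1 libraries, without and with IL3, regions of the number 2 list without IL3 alone were at 34.7% and 36.2%. Those of the number 2 list with IL3 alone were at 25.2% and 31.1%. The part of this make-up in the difference was not tested.

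No difference between these regions and gained regions was found beyond the spread over libraries. The gained regions' mean share was 18.2%, 4.41 points lower (exact paired permutation p = 0.305, unchanged by adjustment), and lower in 6 of 8 libraries. The sign was the same in every LSD1 library and mixed in HDAC3. In the 4 LSD1 libraries the gained regions were at 3.92%, 37.3%, 33.7% and 47.5%, each below the value given above, a mean difference of 11.2 points (exact p = 0.13, the smallest that 4 libraries allow). In HDAC3 with IL3 replicate 1 they were at 10.7% against 2.06%, and the mean difference over the 4 HDAC3 libraries was -2.42 points (exact p = 0.5).

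LSD1 was called more in number 2 than in number 1 libraries at these regions, as it was over STAT5A regions of other classes. Number 2 exceeded number 1 by 49.4 points without IL3 and by 29.7 points with IL3. Over all merged regions the LSD1 shares also went from 2.75% to 26.8% and from 15.3% to 25.9%. At the 78 regions of both number 1 STAT5A lists alone they went from 12.8% to 71.8% without IL3 and from 37.2% to 53.8% with it. In HDAC3 the differences at the 1069 regions were -4.96 and -1.03 points. Over the 4 pairs the mean difference was 18.3 points (two-sided exact paired permutation p = 0.5, smallest possible 0.13). The number 2 LSD1 lists were also the longer ones. With the 250 highest-scoring regions of each list the mean difference was 0.0 points, with 0.655% to 2.34% of the regions covered per library. Signs differed between pairs. From number 1 to number 2, LSD1 went from 2.34% to 1.03% without IL3 and from 1.12% to 1.96% with it. HDAC3 went from 1.31% to 1.40% and from 0.655% to 1.03%. The number 2 HDAC3 list with IL3 held 234 regions on assembled chromosomes, so all of it entered. With so few regions covered, this comparison cannot show the part of list length. Both number 2 LSD1 lists and neither number 1 list held 253 of the 1069 regions (23.7%, 21.2% to 26.3%), against 9.77% of gained regions and 7.88% of all merged regions. The 78 regions of both number 1 STAT5A lists alone also had this LSD1 pattern in 14 cases (17.9%, 11.004% to 27.9%), an interval that includes 23.7%. Both number 1 LSD1 lists and neither number 2 list held 0 of the 1069 (Wilson upper bound 0.358%) and 0 of the 78. Whether the number 2 libraries of STAT5A and LSD1 came from the same culture is not given in the sources used here.

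Genes of the pathway that activates STAT5 and of survival control were among those with such a region at an end. Of 21887 protein-coding genes, 893 (4.08%) had one within 1 kb of an end, 344 (1.57%) had a gained region there, and 14 had both. Among 29 IL3 receptor and JAK-STAT genes 3 had one (10.3%, 3.58% to 26.4%). As many of them, 3, had a gained region (10.3%), over the lower background of 1.57%. Those with one of the 1069 regions were Jak2, the kinase of the IL3 receptor, and Pias1 and Pias2, SUMO ligases that restrain STAT proteins. Of 33 known STAT5 targets 2 had one (6.06%, 1.68% to 19.6%), against 4 with a gained region (12.1%). These were Pim1, a survival kinase, and Dusp5, a phosphatase of ERK. Of 44 BCL2 family and apoptosis genes 5 had one (11.4%, 4.95% to 24.0%), against 2 with a gained region (4.55%). The intervals of the cytokine and target lists include the background of 4.08%, and that of the survival list starts just above it.

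At Pim1 the promoter region of the number 2 lists stood apart from a stronger region gained with IL3. In the number 2 list with IL3 the gained region scored above the promoter region there, and below it at Dusp5 and Bcl2. The Pim1 promoter region lay 3 bp from the gene end at chr17:29490631-29490944 and scored 30.6 without and 45 with IL3. A gained region at chr17:29500829-29501057, 4832 bp from the nearest end of Pim1, scored 413.9 in replicate 1 and 570.2 in replicate 2 with IL3. LSD1 was called at the promoter region with IL3 in both replicates and in neither replicate without. At Dusp5 the region scored 40.7 and 55, and a gained region that scored 26.1 and 40 lay on the other side of the same gene end, 302 bp away.

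Jak2 had its region 169 bp from the gene end at chr19:29251507-29251761, with scores of 44.1 and 65. The other STAT5A regions in Jak2 or within 10 kb of it were called in the number 1 list with IL3 alone, with scores of 70.9 and 55.9. Bcl2, the founding survival protein of its family, had a region with scores of 20.4 and 50 at 78 bp from its end. A gained region inside Bcl2, 74689 bp from its nearest end, scored 417.7 in replicate 1 and 45 in replicate 2. Bcl2l11, which encodes the death-promoting protein BIM, had a region with 40.7 and 45 at 250 bp. Birc6, an inhibitor of apoptosis, had a region with scores of 33.9 and 45, and Casp6, an apoptotic protease, had one with 20.4 and 35. LSD1 was called in at least 1 library at each of these promoter regions. Only 17.6% of all regions of the number 2 lists alone were in no LSD1 list. Such a call therefore does not set these genes apart.

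Cish and Socs3, known STAT5 targets named after their values were seen, had none of these regions near them, unlike Pim1 and Dusp5. Of the 33 known STAT5 targets, 3 had one within 10 kb. Cish, a feedback inhibitor of cytokine receptors, held 0 of them within 10 kb, while a region 10 bp from its end scored 43.8 without IL3 in replicate 1 and 842.8 and 300.1 with IL3 in replicates 1 and 2. Socs3, another feedback inhibitor, also held 0, and its gained region 1077 bp from the gene end scored 272.2 and 310.1. Both genes did have a region called in the number 2 list without IL3 alone. It scored 27.2 at 6857 bp from the end of Cish and 33.9 at 1299 bp from that of Socs3.

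Among 26 gene lists, chromatin modifiers had the highest share. Of 137 such genes 18 had a region of the number 2 lists alone at an end (13.1%, 8.48% to 19.8%), and 2 had a gained region (1.46%). A STAT5A region of any class was at an end of 80 of the 137 (58.4%), so these genes often held other STAT5A regions too. Tbl1xr1, a subunit of the NCoR and SMRT complexes of HDAC3, had the highest score with IL3 of the 18, with 54.3 without and 225.1 with IL3, and was called in 5 of the 8 LSD1 and HDAC3 libraries. Ep300, a histone acetyltransferase, had scores of 23.8 and 35. Kat6a, another acetyltransferase, had 30.6 and 85, and the chromatin remodelling subunit Arid2 had the same values. Kdm3b, a histone H3 lysine demethylase, had 64.5 and 80, and the lysine methyltransferase Kmt2b had 20.4 and 75.

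Other lists whose interval lay above the background were vesicle traffic and Golgi with 20 of 200 genes (10.0%, 6.57% to 14.9%), ribosome biogenesis and nucleolus with 12 of 121 (9.92%, 5.76% to 16.5%), and ubiquitin and autophagy with 19 of 206 (9.22%, 5.98% to 13.96%). The 12 include Srm and genes with WDR symbols that have no established part in ribosome biogenesis. The share without them was not computed, so this list may not lie above the background. Srm, the spermidine synthase found by the ribosome biogenesis list, had scores of 152.8 without and 65 with IL3 and was called in 0 of the 8 LSD1 and HDAC3 libraries. Translation factors (6 of 71, 8.45%), aminoacyl-tRNA synthetases (3 of 37, 8.11%) and chaperones (7 of 93, 7.53%) were above it with intervals that include it. Cytosolic ribosomal proteins were near the background with 3 of 85 genes (3.53%), as were zinc finger proteins with 15 of 397 (3.78%) and spliceosome genes with 5 of 135 (3.70%). Histone genes had 2 of 99 (2.02%) and respiratory chain genes 3 of 107 (2.80%). The lists for immediate early, B lineage, mast and myeloid, T cell and other tissue genes had 0 of 27, 25, 25, 14 and 32 genes, with upper bounds between 10.7% and 21.5%. The lists also differed in the share with any STAT5A region at all at an end. It was 48.5% for vesicle traffic, 45.5% for ribosome biogenesis and 42.7% for ubiquitin and autophagy. For cytosolic ribosomal proteins it was 48.2% and for spliceosome genes 53.3%. Such a region was at the ends of 3 of the 25 B lineage and 5 of the 25 mast and myeloid genes. The share over all genes is not given here.

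**Figure D4:**
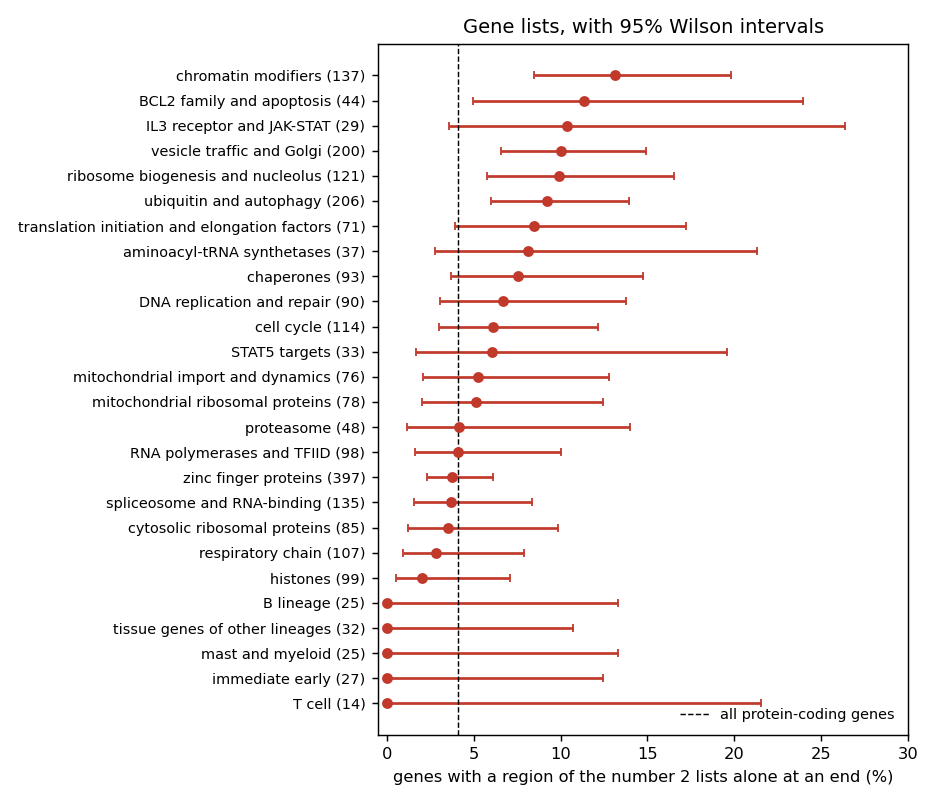
Percent of the genes of each list with a region of the number 2 lists alone within 1 kb of a gene end (horizontal axis), with 95% Wilson intervals and the number of genes in parentheses. The dashed line is the share of all protein-coding genes, 4.08%, and 5 lists of lineage, tissue and immediate early genes are at 0.

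Among 26 marker genes, 9 of pro-B cells, 3 of the IL3 receptor and 14 of other cell types, 0 had one of these regions within 1 kb of an end. Over all genes the share was 4.08%, so a count of 0 among so few genes is near the background. At a distance of up to 10 kb, 1 had one, the mast cell and progenitor factor Gata2. The 3 IL3 receptor genes each had a STAT5A region of some class within 1 kb, and the 9 pro-B genes had 0. ChIP-seq does not measure expression, so these calls do not check the cell type itself.

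The 4 regions with the highest scores in both number 2 lists were unlike the rest. They were the region nearest Axin2, with scores of 312.3 and 420.1, one inside Cdk8, with 196.9 and 250.1, one nearest Rpp21, with 176.5 and 250.1, and one nearest Pex2, with 169.7 and 245.1. They lay 24374 to 282083 bp from the nearest gene end. These were also the only 4 of the 1069 regions called in all 8 LSD1 and HDAC3 libraries, and they were in all 6 pooled lists. Regions on the X chromosome in Il1rapl1 (91.7 and 85) and in Arid3a on chromosome 10 (27.2 and 60) were called in 7 of 8. In all, 17 regions were in all 6 pooled lists, and without them the IL3 differences were 16.6 points for LSD1 and -3.42 points for HDAC3. Any filter of the authors on problem regions is not given in the sources used here.

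Below these, high scores in one list often met middling scores in the other. Paip2b, a translation repressor, scored 115.4 without and 30 with IL3, and Mxd4, a partner of MAX, scored 88.3 and 40. St3gal4, a sialyltransferase, scored 20.4 without and 120 with IL3. All 3 regions lay within 281 bp of a gene start. High in both lists were the regions at Slc35g1, a membrane transporter, and Bola3, an iron-sulfur cluster factor. They scored 47.5 and 95 at 32 bp from the start, and 47.5 and 90 at 45 bp. The lower of both percentile ranks was 94.8 for Slc35g1 and 94.4 for Bola3.

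The regions were spread unevenly over chromosomes. Chromosome 19 held 13.05 per 100 protein-coding genes, chromosome 15 held 9.92, chromosome 3 held 8.65, chromosome 9 held 8.33 and chromosome 17 held 8.22. The X chromosome held 6 regions on 966 genes, 0.621 per 100. These 5 autosomes, named after their values were seen, carry 21.6% of genes and held 441 of the 1069 regions (41.3%, 38.3% to 44.2%), against 25.6% of gained regions and 29.0% of all merged regions. The 78 regions of both number 1 lists alone stood at 44.9% (34.3% to 55.9%), an interval that includes the share of the 1069.

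LSD1 and HDAC3 regions differed by library in this. The 5 chromosomes held 44.9%, 28.2%, 33.1% and 28.3% of LSD1 regions at gene ends, in the order without IL3 replicates 1 and 2 and with IL3 replicates 1 and 2. Both replicate 2 shares lay near those of gained and all merged regions. For HDAC3 they held 37.8%, 46.9%, 45.9% and 58.8%. Over 21 chromosomes, the number of the 1069 regions at gene ends per gene followed that of LSD1 regions at gene ends, with Spearman coefficients of 0.861 to 0.881, and that of HDAC3 regions with 0.556 to 0.787. For the median promoter G+C content over 20 chromosomes it was 0.501. All of the 1069 regions per gene, at gene ends or not, and gained regions per gene gave 0.605. All of these points share the line's genome and the same gene counts.

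**Figure D5:**
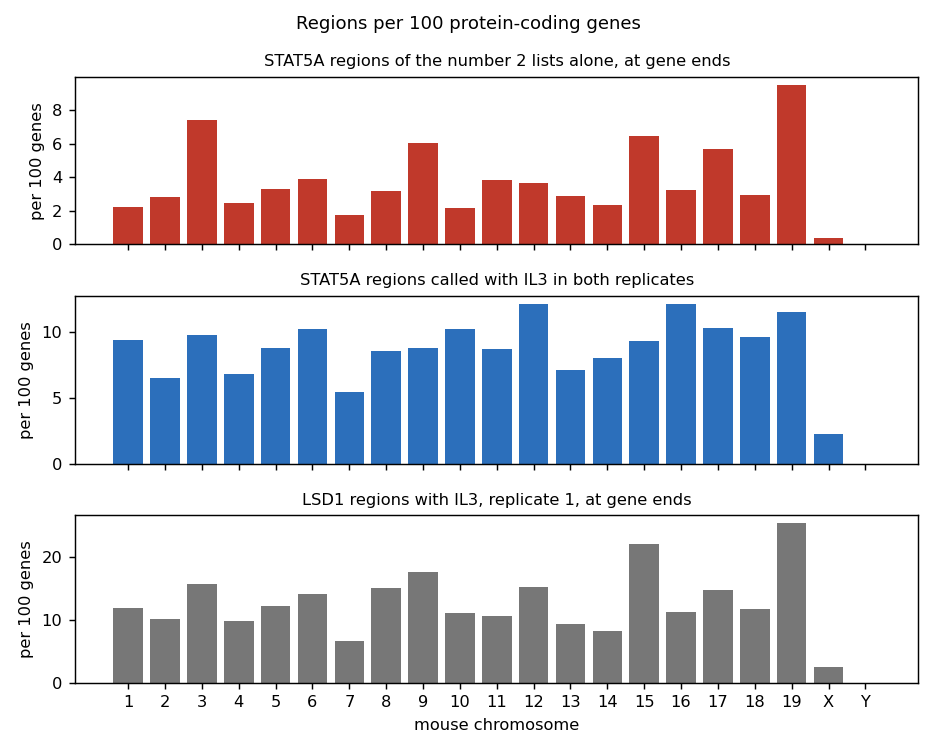
Regions per 100 protein-coding genes (vertical axes) on each mouse chromosome (horizontal axis) for regions of the number 2 lists alone at gene ends, for gained STAT5A regions, and for LSD1 regions at gene ends in replicate 1 with IL3. Chromosomes 3, 9, 15, 17 and 19 stand above the other autosomes in the top panel, and chromosomes 15 and 19 are the highest in the bottom panel.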

How the data were processed

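ChIP-seq of STAT5A, LSD1 and HDAC3 in Ba/F3 cells gave 12 replicate lists and 6 pooled lists. Per the submitters' processing notes, the tools were HOMER 4.8, Picard 1.92, Bowtie2 2.1.0 and Trimmomatic 0.30, with the mm10 build. The sources used here give neither the caller's settings, control and threshold nor read totals, so counting depth is known only as score steps. Each deposited region carries a score from the authors whose definition is not given. Scores were compared as ranks or medians within a list. The input library was not analysed here. Regions were merged at 1 bp of overlap with Python 3.11.15, numpy 2.4.6 and pandas 2.3.3, and tests were exact permutations over libraries with a threshold of 0.05, tested on simulated data. Gene bounds, starts and promoter windows are from RefSeq on GRCm38.p6, whose chromosomes are those of mm10. A gene end is either bound of a gene, and exons are not known. Scores of single regions have no replicate error, and Wilson intervals do not cover the spread between libraries. Regions are not replicates, so shares of regions were not tested. The labels call the replicates biological, and with 2 per group the p-values rest on few libraries.

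Named genes are those nearest the 10 highest-scoring regions of each number 2 list and the 10 with the highest lower rank of both lists, up to 6 per gene list, and those in most LSD1 and HDAC3 libraries, and the text gives a part of them. Some items are not reported here. Cish, Socs3, Gpr146, Ubash3b, Fzd4, Csrnp1, Gata2, Ep300, Rb1 and E2f5 fall outside this rule and were chosen after their values were seen. The regions and the 26 gene lists were chosen with earlier results of these data known. Sequence of the regions themselves, regions around single genes and the groups of chromosomes were added after seeing the data. Alternatives were other overlaps, distances, score cuts and libraries left out.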

Additional observations from a re-analysis of the deposited data

Results flagged for a closer look

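LSD1 and HDAC3 shares differed in opposite directions between replicate numbers at the 1069 regions. Number 2 minus number 1 was 39.6 percentage points on average in LSD1, positive without and with IL3, and -2.99 points in HDAC3, negative in both. The difference between the proteins was not tested. Over all 20764 merged STAT5A regions the directions were the same, with LSD1 at 26.8% and 25.9% in number 2 against 2.75% and 15.3% in number 1, and HDAC3 at 1.24% and 0.241% against 4.86% and 2.56%. The number 2 LSD1 lists were longer than the number 1 lists. The number 2 HDAC3 lists were shorter (535 and 265 regions against 1632 and 683). The part of list length was not tested, since the 250 highest-scoring regions of each list covered too few regions to show it.

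With IL3 the mean shares of the proteins also differed in opposite directions, within the limits of 2 libraries a group. With minus without IL3 was 16.6 points in LSD1, with 26.4 in replicate 1 and 6.74 in replicate 2, and -3.74 points in HDAC3, with -5.71 and -1.78. Without LSD1 replicate 1 without IL3, the shallowest library, the LSD1 difference was -8.14 points. Over all merged STAT5A regions HDAC3 shares also were lower with IL3, 2.56% and 0.241% against 4.86% and 1.24%. The difference between the proteins was again not tested.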

How the results depend on the processing

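The number of regions depended on the lists used: it was 396 with the regions above the middle rank of each number 2 list, and 1074 to 4136 with 1 STAT5A list left out (4136 without the number 2 list without IL3, 4015 without the number 2 list with IL3). Other overlap rules gave 829, 874 and 1325. The share at gene ends was 65.3% at 500 bp, 79.3% at 2000 bp and 85.5% at 5000 bp. The LSD1 difference with IL3 ran from -8.14 to 41.3 points with 1 library left out, and was reversed without LSD1 replicate 1 without IL3; that of HDAC3 ran from -6.22 to -1.26. With the replicate number as a block the LSD1 difference was 16.6 points and the HDAC3 difference -3.74 points (exact paired permutation p = 0.5 for each, the smallest possible), and no call changed. Against gained regions the difference ran from 2.04 to 6.28 points with 1 library left out, and was -2.42 with HDAC3 libraries alone, a reversal, 11.2 with LSD1 libraries alone, 8.27 at gene ends only, 1.15 at an overlap of at least 50% and 0.356 with the regions above the middle rank of each list. Number 2 minus number 1 was -2.99 points with HDAC3 alone, a reversal, 7.92 without the shallowest library and its pair, and 0.0 with the 250 highest-scoring regions. Genes with a region numbered 1416 at 10000 bp. The differences from regions of all 4 lists and of a single list kept their sign and side of the threshold in the alternatives run, which were added after seeing the data, with an exact permutation p = 0.0156 at 7 libraries. In all, 64 of 75 alternatives kept the direction and the side of the threshold or stayed within the set limits. The cause of the changes was not tested. Depth is known only relative to the shallowest library, which limits any statement on regions not called.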

Other observations

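Genes of DNA replication and repair and of the cell cycle held regions of the number 2 lists alone at shares above the background of 4.08% with intervals that include it. Of 90 replication and repair genes 6 had one (6.67%, 3.09% to 13.8%). Msh6, a DNA mismatch repair protein, had scores of 30.6 without and 35 with IL3 and was called in 6 of the 8 LSD1 and HDAC3 libraries. Rad1, a subunit of the checkpoint clamp, had the highest score without IL3 of the 6, with 84.9 without and 75 with IL3.

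Of 114 genes on the cell cycle list 7 had one (6.14%, 3.01% to 12.1%). Cdc73 and Cdc42se1 are among the 7 and have CDC symbols, and a share without both was not computed. The 7 also included Rb1, the retinoblastoma tumour suppressor, with scores of 17 and 30 at 4 bp from the gene end. E2f5 and E2f6, which encode repressive E2F factors, had 20.4 and 25 and 30.6 and 35. Ccnb2, a mitotic cyclin, had 50.9 and 30.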
